A study of Mus musculus with 2 samples.

Results

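The cytochrome P450 genes were examined in mouse heart, on 1 array of a transgenic WRN-K577M heart sample and 1 array of a control heart sample. Members were all genes whose symbol is Cyp followed by digits, letters and digits, such as Cyp4f15, among the genes that RefSeq accessions name on the array. This gave 90 P450 genes of 21368 named genes, read by 111 probes. The WRN-K577M sample came from a B6.Cg line with the transgene Tg (CAG-WRN*K577M) 5025Wcl/Mmmh, on a C57BL6 background, in which the CAG promoter, active in most cell types, drives a mutated form of the DNA helicase WRN. The control sample came from C57BL6 and is labelled control only. Both titles also carry the letters ND, and their meaning, the age of the mice and any pooling of hearts are not given in the sources used here. The comparison was made to look for signalling behind remodelling of the heart in the transgenic line.

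Cytochrome P450 enzymes are haem proteins that insert an oxygen atom into a substrate, using electrons that P450 reductase in the endoplasmic reticulum or ferredoxin in mitochondria hands on. Some oxidise drugs and toxicants, and their genes are switched on by receptors that sense such chemicals. Others make or break down signalling lipids: in the heart, epoxides and hydroxylated forms of arachidonic acid, and in other tissues steroids, bile acids, vitamin D and retinoic acid.

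Since each group has 1 array, the values have no replicate check, no test was run, and the difference in genotype cannot be told apart from any other difference between the samples. The arrays held 55681 non-control probes, of which 52.9% on the WRN-K577M array and 55.2% on the control array were well above background by the scanner software's own call. A level here is the log2 signal relative to the array's 75th percentile. A log2 ratio subtracts the control level from the WRN-K577M level, so a positive ratio means a higher level in the transgenic heart. A gene is called measured where both arrays read a probe of it well above background, and over all measured genes the median log2 ratio was 0.02. Of the probes of mouse Wrn, 1 read -3.96 in the transgenic heart and, at -6.52, lay below the background limit in the control heart. The other Wrn probe had -3.23 in the transgenic heart and -3.02 in the control heart, and whether either reads the transgene was not tested.

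The heart label was borne out by a list of cardiomyocyte markers, general ones such as Myh6 and Tnnt2 and the ventricular Myl2 and Myl3. Measured on both arrays were 10 of 10 genes, with a median log2 ratio of 0.18 and none of them 2-fold different. Atrial markers differed, since the 6 measured of 8 were all at least 2-fold lower in the transgenic heart. Endothelial markers, 10 of 10 measured, had a median of -0.01. Of 10 fibroblast markers, all measured, 6 were at least 2-fold lower in the transgenic heart, with a median of -1.45. The 8 markers of smooth muscle and pericytes had a median of 0.04 with 1 at least 2-fold lower, and the 6 of mesothelium a median of 0.29.

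Most P450 genes were either below the background limit or within 1.5-fold between the hearts. Of the 90 genes, 48 were well above background on 1 or both arrays, which is 53.3%, against 70.0% of all named genes. The measured ones numbered 38, a further 1 was well above background in the transgenic heart only and 9 in the control heart only, and 42 on neither array. None of the 38 measured genes was at least 2-fold higher in the transgenic heart, where 1.94% of all measured genes were, and 2 were at least 2-fold lower, where 3.46% of all measured genes were. These 2 were Cyp2e1 and Cyp2b10. Within 1.5-fold lay 32 of the 38, which is 84.2%, against 84.1% of all measured genes.

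Somewhat more of the small differences lay on the side of the transgenic heart than over all genes. A log2 ratio above 0 was found for 25 of the 38 measured P450 genes, which is 65.8%, against 52.4% of all measured genes, and their median was 0.15 against 0.02. The sign held under 6 other scalings for 21 genes above 0 and 8 below 0, and turned under 1 or more of them for the other 9, none of which had an absolute ratio over 0.25. Under these scalings the count above 0 ran from 23, as with cyclic loess, to 28 after normexp. The scanner software's own estimate of the error of a log2 ratio, which covers measurement only, ran between 0.20 and 0.38 for these genes. These errors belong to single genes and give no error for the median of 0.15, which has no replicate check. By more than 2 such errors, 4 genes were higher in the transgenic heart (Cyp4v3, Cyp2j13, Cyp27a1 and Cyp4b1), where 11.3% of all measured genes were, and 4 were lower (Cyp2e1, Cyp2b10, Cyp26b1 and Cyp4f18), where 13.6% of all measured genes were.

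**Figure D1:**
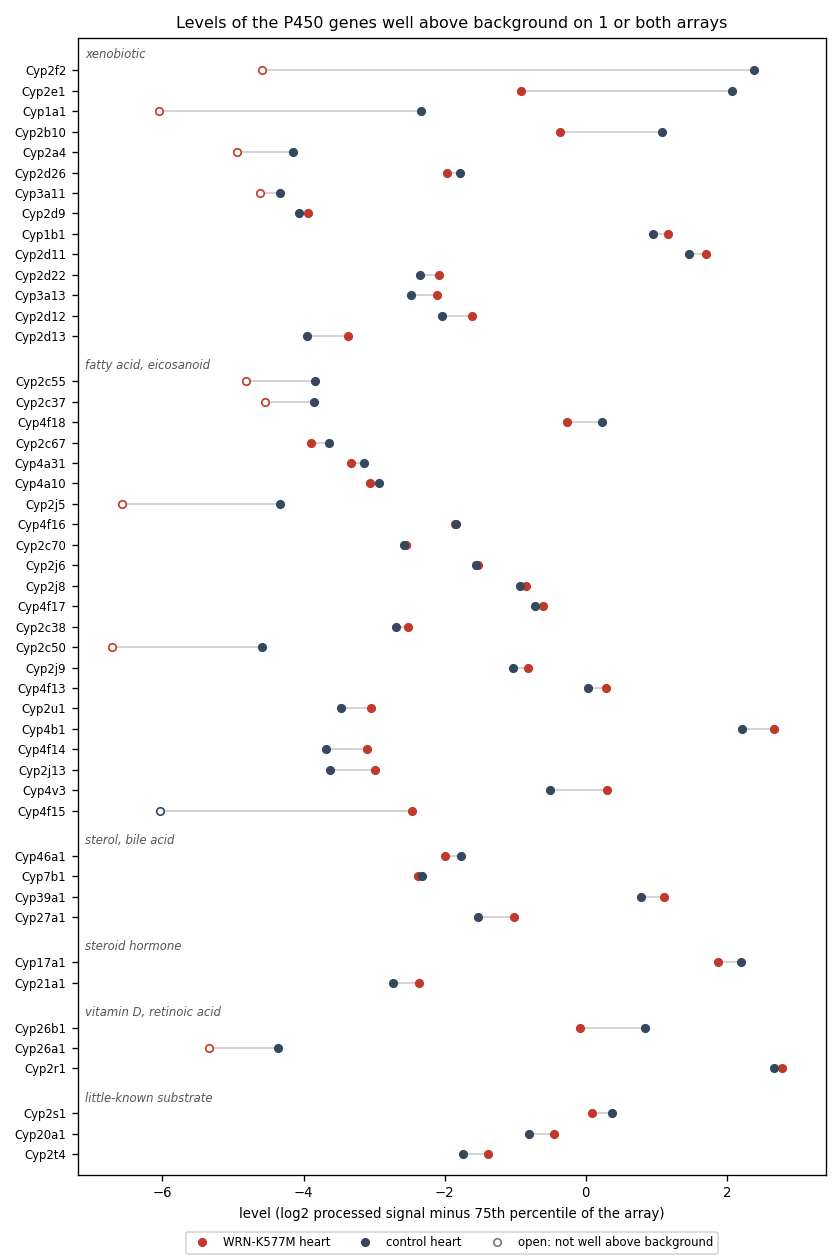
Level of each of the 48 P450 genes well above background on 1 or both arrays, as log2 signal relative to the array's 75th percentile, with the transgenic heart in red and the control heart in blue, 1 array each, and open circles where the probe was not well above background. Rows are grouped by the enzymes' roles, and most pairs lie close together. By ratio or bound, Cyp2f2, Cyp2e1, Cyp1a1 and Cyp2b10 are at least 2-fold lower and Cyp4f15 at least 2-fold higher in the transgenic heart. Cyp2j5 and Cyp2c50 are also drawn far apart, but their transgenic values are not well above background and their bounds are under 2-fold or give no fold.

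More of the P450 genes than of other genes crossed the background limit on the control array alone. The 9 genes well above background in the control heart only are 9 of 90, where 3.46% of all named genes were so, and the 1 gene of the transgenic heart only is 1 of 90, where 0.978% of all named genes were. Such a gene has no ratio, only a bound, taken from its level on the brighter array. On the other array, the bound takes the higher of the gene's own level and the lowest level well above background. That lowest level was -4.42 for the WRN-K577M array and -4.73 for the control array. It is no strict limit, since Cyp26c1 read -3.96 in the transgenic heart and was not well above background. Bounds given as at least a fold thus hold under this rule only. Bounds of at least 2-fold lower were found for 2 P450 genes, Cyp2f2 and Cyp1a1, against 0.646% of all named genes, and of at least 2-fold higher for 1, Cyp4f15, against 0.328%. The other 7 genes of the control heart had levels there between -4.59 and -3.83, next to the limit. Their bounds ran from 1.04-fold to 1.5-fold lower, with no fold for 1 of them, Cyp2c50, and for Cyp2a4, Cyp2c37, Cyp2j5, Cyp3a11 and Cyp26a1 no lower bound was left after normexp, a model-based background correction, run here on the raw spot signal with an added offset of 50.

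The promoters of the 5 genes that were at least 2-fold different, by ratio or by bound, are shown with the motifs of general and P450 regulators. They are RefSeq sequences of build GRCm38.p6, 250 bases before to 50 bases after the annotated start, all on the plus strand: Cyp1a1 at chr9:57697363-57697662, Cyp2b10 at chr7:25897408-25897707, Cyp2e1 at chr7:140763569-140763868, Cyp2f2 at chr7:27119705-27120004 and Cyp4f15 at chr17:32685409-32685708. Capitals mark exact matches on either strand to GCGTG, the core of the site of the aryl hydrocarbon receptor, to TATAAA, the TATA box, and to AGGTCA, the half-site of many nuclear receptors, and no match overlaps another.
Cyp1a1: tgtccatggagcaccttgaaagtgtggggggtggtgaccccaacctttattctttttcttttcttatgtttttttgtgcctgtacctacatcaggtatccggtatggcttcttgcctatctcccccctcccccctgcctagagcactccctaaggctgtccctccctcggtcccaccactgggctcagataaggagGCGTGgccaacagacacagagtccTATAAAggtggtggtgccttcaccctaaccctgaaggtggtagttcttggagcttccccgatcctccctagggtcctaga
Cyp2b10: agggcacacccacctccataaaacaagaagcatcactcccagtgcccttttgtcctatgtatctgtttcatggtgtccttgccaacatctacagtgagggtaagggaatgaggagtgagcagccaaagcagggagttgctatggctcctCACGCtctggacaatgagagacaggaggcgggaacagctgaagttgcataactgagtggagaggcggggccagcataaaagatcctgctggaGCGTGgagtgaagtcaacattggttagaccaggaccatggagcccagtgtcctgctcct
Cyp2e1: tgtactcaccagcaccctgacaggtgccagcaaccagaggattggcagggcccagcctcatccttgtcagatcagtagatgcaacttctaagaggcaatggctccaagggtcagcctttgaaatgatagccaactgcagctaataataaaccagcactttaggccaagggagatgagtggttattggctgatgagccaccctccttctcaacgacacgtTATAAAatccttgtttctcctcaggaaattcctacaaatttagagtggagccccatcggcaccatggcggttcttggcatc
Cyp2f2: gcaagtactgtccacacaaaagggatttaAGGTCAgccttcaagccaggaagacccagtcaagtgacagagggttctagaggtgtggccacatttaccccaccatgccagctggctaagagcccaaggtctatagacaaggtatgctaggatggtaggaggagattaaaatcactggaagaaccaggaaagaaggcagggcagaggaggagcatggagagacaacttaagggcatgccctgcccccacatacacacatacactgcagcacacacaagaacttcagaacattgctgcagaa
Cyp4f15: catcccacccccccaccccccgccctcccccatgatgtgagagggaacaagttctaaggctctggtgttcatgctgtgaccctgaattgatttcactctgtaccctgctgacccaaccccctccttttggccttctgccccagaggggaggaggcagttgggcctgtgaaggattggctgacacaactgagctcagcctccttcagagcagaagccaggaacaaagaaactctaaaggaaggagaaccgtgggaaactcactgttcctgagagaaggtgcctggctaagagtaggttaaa

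The Cyp1a1 window holds GCGTG 54 bases and TATAAA 30 bases before the start. In the Cyp2b10 window GCGTG stands 101 bases before the start on the opposite strand and 9 bases before it on the same strand. The Cyp2e1 window holds TATAAA 31 bases and the Cyp2f2 window AGGTCA 221 bases before the start, and the Cyp4f15 window holds none of these letters. RefSeq promoters were matched for 69 of the 90 P450 genes, with 79 starts in all. TATAAA was found in 36.7% of these P450 promoters, against 13.6% of all 32851 promoters of the same length, AGGTCA in 26.6% against 16.3%, and GCGTG in 20.3% against 32.4%. A P450 promoter held a median of 2 CpG sites, against 7 over all promoters, and a median GC content of 50.3%, against 52.7%. A match is a description of the letters and says nothing of binding.

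The enzymes of drugs and toxicants were taken here as the subfamilies Cyp1a, Cyp1b, Cyp2a, Cyp2b, Cyp2d, Cyp2e, Cyp2f, Cyp2g and Cyp3a. Other Cyp2 subfamilies, such as Cyp2c and Cyp2j, were placed in other groups. In this group Cyp2f2, Cyp2e1, Cyp1a1 and Cyp2b10 were at least 2-fold lower in the transgenic heart, and 7 of the 10 measured genes lay within 1.5-fold. The group holds 30 genes, of which 10 were measured, 4 were well above background in the control heart only and 16 on neither array. Cyp2f2, which oxidises naphthalene in the club cells of the mouse airway, had a signal of 8.71 in the transgenic heart, not well above background, and 1339 in the control heart. Its levels were -4.59 in the transgenic heart and 2.39 in the control heart, which makes it at least 112-fold lower in the transgenic heart, or at least 16.7-fold lower after normexp. The gene was thus bright on the control array and at background on the other.

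Cyp2e1, which oxidises ethanol, acetone and small solvents, was measured by 2 probes that both gave a ratio far below 0. The brighter had a signal of 111 in the transgenic heart and 1076 in the control heart, with levels of -0.92 in the transgenic heart and 2.07 in the control heart and a log2 ratio of -2.99, which is 7.96-fold lower (5.86-fold after normexp). The other had a signal of 23.6 in the transgenic heart and 308 in the control heart and a log2 ratio of -3.42. Cyp2b10, an enzyme induced by phenobarbital through the receptor Nr1i3, had a level of -0.36 in the transgenic heart and 1.07 in the control heart, a log2 ratio of -1.44 (2.71-fold lower, and 2.08-fold after normexp). Cyp1a1, which oxidises polycyclic aromatic hydrocarbons and is the classic target of the aryl hydrocarbon receptor, had a signal of 3.17, not well above background, in the transgenic heart and 50.8 in the control heart. This makes Cyp1a1 at least 4.24-fold lower in the transgenic heart, but at least 1.45-fold lower after normexp. In bulk tissue, fewer cells of a type and less RNA per cell cannot be told apart for any of these genes.

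Many genes known from airway and alveolar cells of the lung were lower in the transgenic heart as well. Of 8 club cell markers, 4 were measured, 2 were well above background in the control heart only and 2 on neither array. The secretoglobin Scgb1a1, the main club cell product, had a level of -2.02 in the transgenic heart and 5.76 in the control heart, a log2 ratio of -7.78, and Cbr2, a carbonyl reductase of lung, had a log2 ratio of -1.88. Of the other measured members Aldh1a1 had a log2 ratio of -0.62 and Scgb3a1 of 0.18. Sftpd, which is also on the alveolar list, was at least 130-fold lower and Foxj1 at least 1.27-fold lower by their bounds, and Scgb3a2 and Reg3g were at background in both hearts. The summed level of the list, on the linear scale relative to the 75th percentile, was 16.7 in the transgenic heart and 106 in the control heart. Of 10 alveolar markers, 8 were well above background in the control heart only, 6 of them at least 2-fold lower by their bound, and 2 were measured, with a median of -0.44. The measured ones were Hopx (-0.41) and Lamp3 (-0.47), which make up nearly all of the list's summed level of 47.6 in the transgenic heart, against 143 in the control heart. The surfactant genes Sftpc, Sftpd and Sftpb were at background in the transgenic heart, at least 1336-fold, 130-fold and 113-fold lower. The part of these cells in the values of Cyp2f2, Cyp2e1, Cyp2b10 and Cyp1a1, all known in mouse lung, was not tested.

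Fat and liver markers were read beside Cyp2e1, since both tissues express it. Of 10 adipocyte markers, 7 were measured and 5 of these were at least 2-fold lower in the transgenic heart, with a median of -2.71, and 2 more were well above background in the control heart only. Fabp4 and Lpl, which heart endothelium and muscle also express, had log2 ratios of 0.53 and 0.34. The summed level of the adipocyte list was 704 in the transgenic heart and 563 in the control heart, nearly all of it from Lpl and Fabp4. Adipoq, Cfd, Cidec, Retn and Car3 were between 5.60-fold and 18.4-fold lower in the transgenic heart. The part of fat cells in the Cyp2e1 value was not tested. Of 12 hepatocyte markers, 7 were measured with a median of 0.02, among them Ttr (2.40) and Pck1 (-2.81), which fat also expresses, and the defining genes Alb, Apoa1, Fga, Fgb and Hnf4a were at background in both hearts. Summed, the hepatocyte list stood at 13.2 in the transgenic heart and 13.5 in the control heart.

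**Figure D2:**
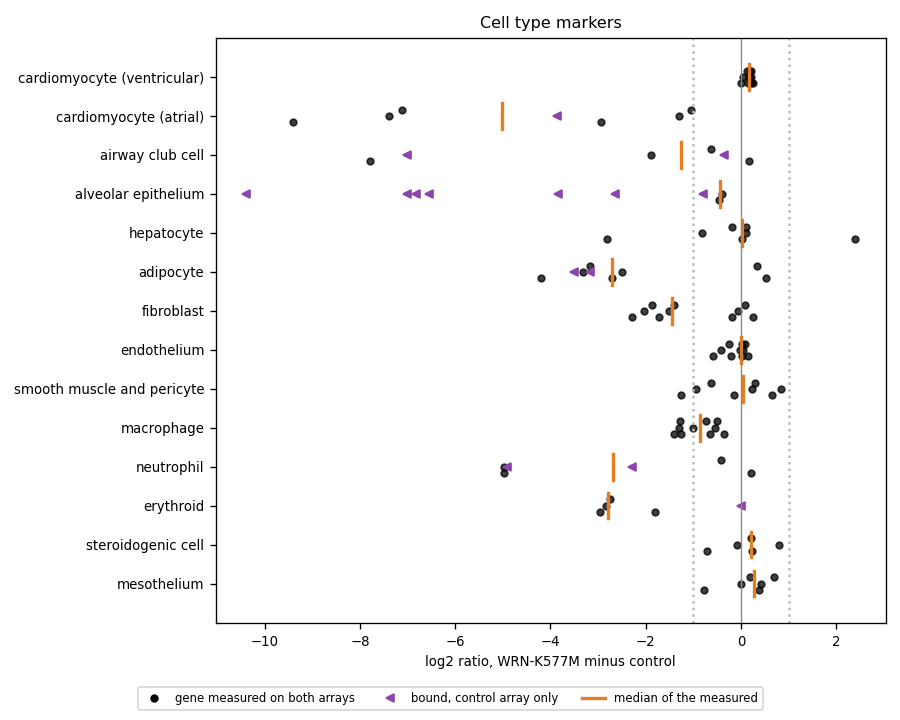
Log2 ratio, WRN-K577M minus control, of markers of cell types of the heart and of other tissues such as lung and liver. Each point is 1 gene measured on both arrays. Triangles are bounds of genes well above background on the control array only, bars the median of the measured genes, and dotted lines 2-fold. The row named ventricular, which also holds general cardiomyocyte markers, and the endothelial row lie near 0, with medians of 0.18 and -0.01. Atrial, adipocyte, club cell and alveolar markers reach far below 0. So do some neutrophil markers and the erythroid markers, the latter with a median of -2.80, and the fibroblast markers have a median of -1.45. A gene whose bound gives no fold has no symbol.

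The other measured genes of this group had log2 ratios between -0.18 and 0.59. Cyp1b1, an enzyme of vessel walls that oxidises oestradiol and aromatic hydrocarbons, had levels of 1.16 in the transgenic heart and 0.95 in the control heart, a log2 ratio of 0.22. The Cyp2d genes, mouse relatives of a human enzyme that oxidises many drugs, gave 6 measured members, of which Cyp2d11 (log2 ratio 0.23), Cyp2d22 (0.28), Cyp2d12 (0.43) and Cyp2d13 (0.59) were above 0 under every scaling tried. Cyp2d12 stood at 0.16 after normexp. The probe of Cyp2d13 is named by a RefSeq transcript that is non-coding, so its value is not that of an enzyme's messenger RNA. The ratio of Cyp2d9, 0.12, turned to -0.02 with cyclic loess, and Cyp2d26 had -0.18. Cyp3a13, an intestinal member of its family, had a log2 ratio of 0.36. Cyp3a11 and Cyp2a4, abundant in liver, were just over the limit in the control heart only, with bounds of 1.06-fold and 1.2-fold lower. Cyp1a2, the liver partner of Cyp1a1, was well above background on neither array.

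The enzymes of fatty acids and eicosanoids, the largest group with 36 genes, had 15 of 17 measured genes within 1.5-fold, 12 of the 17 above 0 and a median of 0.11. A further 1 gene was well above background in the transgenic heart only, 4 in the control heart only and 14 on neither array. Cyp4f15, of a subfamily that hydroxylates leukotrienes and fatty acids, had a signal of 38.1 in the transgenic heart and 3.91, not well above background, in the control heart. Its levels were -2.46 in the transgenic heart and -6.03 in the control heart, which makes it at least 4.83-fold higher in the transgenic heart, but at least 1.68-fold higher after normexp. It has 1 probe here, so no second probe bears on the value.

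Neighbours of Cyp4f15 in its tandem cluster on chromosome 17 differed little. Cyp4f14 had levels of -3.10 in the transgenic heart and -3.68 in the control heart, a log2 ratio of 0.58, Cyp4f13 had a ratio of 0.25 and Cyp4f17 of 0.11. Cyp4f16 stood at -0.0047, a value whose sign turned under 2 scalings. Cyp4f18, which inactivates leukotrienes in mouse neutrophils and macrophages, was below 0, with levels of -0.26 in the transgenic heart and 0.23 in the control heart and a log2 ratio of -0.49. Of 10 measured macrophage markers, 5 were lower by 2-fold or more (1 after normexp), with a median of -0.86. The summed level of the macrophage list was 29.1 in the transgenic heart and 47.6 in the control heart. Of 7 neutrophil markers 4 were measured, with unlike values: S100a8 and S100a9 each had a log2 ratio of -4.98, Camp had -0.41 and Csf3r had 0.21. Retnlg and Mmp8 were at least 30.0-fold and 4.89-fold lower by their bounds, and Ngp was at background in both hearts. The summed level of the neutrophil list, 215 in the transgenic heart and 227 in the control heart, came almost wholly from Csf3r. The part of these cells in the Cyp4f18 value was not tested.

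Cyp4v3, the mouse counterpart of the fatty acid hydroxylase that is mutated in Bietti crystalline dystrophy of the retina, had the highest ratio of the measured P450 genes. Its levels were 0.30 in the transgenic heart and -0.51 in the control heart, a log2 ratio of 0.81 (1.76-fold, and 1.6-fold after normexp). Cyp4b1, a fatty acid hydroxylase abundant in lung, had levels of 2.67 in the transgenic heart and 2.21 in the control heart, a log2 ratio of 0.46. Unlike Cyp2f2 and Cyp2e1, it was thus higher in the transgenic heart, under every scaling tried. Cyp2u1, which hydroxylates long fatty acids, had a log2 ratio of 0.43. The ratios of Cyp4a10 (-0.14) and Cyp4a31 (-0.18), fatty acid hydroxylases, turned to 0.10 and 0.17 after normexp. A second Cyp4a31 probe was well above background in the control heart only, with levels of -6.49 in the transgenic heart and -3.46 in the control heart.

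Some Cyp2j and Cyp2c enzymes make epoxides of arachidonic acid that widen coronary vessels, and the substrates of single members were not examined here. All 4 measured Cyp2j genes were above 0: Cyp2j13 (log2 ratio 0.64), Cyp2j9 (0.22), Cyp2j8 (0.09) and Cyp2j6 (0.03), the last of which turned under 3 scalings. For Cyp2j13 the probes did not give the same value, since the brighter had -2.99 in the transgenic heart and -3.62 in the control heart and the other a log2 ratio of -0.04, with a mean of 0.30 over both. Cyp2j5, an abundant kidney and liver member, was over the limit in the control heart only, with a bound of 1.07-fold. Of 13 Cyp2c genes, 3 were measured: Cyp2c38 had a log2 ratio of 0.17, Cyp2c70 of 0.03 with a sign that turned under 3 scalings, and Cyp2c67 of -0.25, which became 0.11 after normexp. Cyp2c55 and Cyp2c37 had bounds of 1.5-fold and 1.49-fold lower, neither of them left after normexp at more than 1.01-fold lower.

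**Figure D3:**
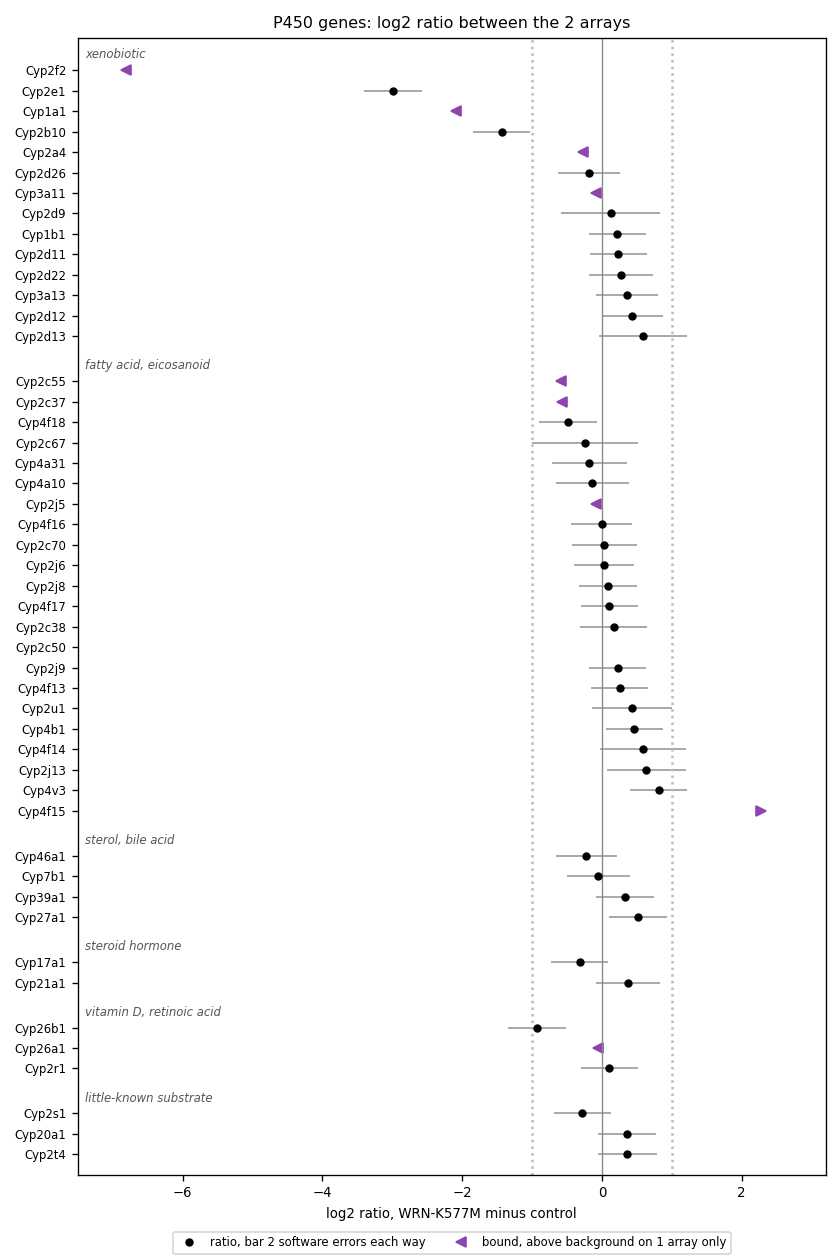
Log2 ratio, WRN-K577M minus control, of the P450 genes grouped by role, with bars of 2 software errors, which cover measurement only, on the genes measured on both arrays, and triangles for bounds of genes well above background on 1 array. The 38 measured genes lie between -2.99 and 0.81, and only Cyp2e1 and Cyp2b10 pass the dotted 2-fold line. Cyp2c50, whose bound gives no fold, has no symbol.

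Of 6 enzymes of cholesterol and bile acids, 4 were measured, all within 1.5-fold, and Cyp7a1 and Cyp8b1, the bile acid enzymes of liver, were at background in both hearts. Cyp27a1, the mitochondrial enzyme that hydroxylates the sterol side chain, was printed at 10 spots, so a spread between spots can be given. Its levels were -1.01 in the transgenic heart and -1.52 in the control heart, with a log2 ratio of 0.51 and an SD of 0.19 between spots. Cyp39a1, which acts on hydroxylated cholesterol, had levels of 1.11 in the transgenic heart and 0.78 in the control heart, a log2 ratio of 0.33. Cyp7b1, another oxysterol hydroxylase, had -0.05, which turned to 0.11 after normexp, and Cyp46a1, the cholesterol hydroxylase of neurons, had -0.22.

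Of 6 steroid hormone enzymes, only Cyp17a1 and Cyp21a1 were measured. Cyp17a1, which opens the way to androgens, had levels of 1.88 in the transgenic heart and 2.20 in the control heart, a log2 ratio of -0.32. Cyp21a1, which makes the precursors of corticosterone and aldosterone, had -2.36 in the transgenic heart and -2.74 in the control heart, a log2 ratio of 0.37. The enzymes before and after them in the pathway, Cyp11a1, Cyp11b1, Cyp11b2 and Cyp19a1, were at background in both hearts. Of 7 markers of steroid-making cells 5 were measured, with a median of 0.22, and Hsd3b1 and Mc2r were at background in both hearts.

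Among the enzymes of vitamin D and retinoic acid, 1 gene was close to 2-fold different. Cyp26b1, which breaks down retinoic acid, had levels of -0.09 in the transgenic heart and 0.84 in the control heart, a log2 ratio of -0.93 (1.90-fold lower, and 1.77-fold after normexp). Its relative Cyp26a1 was barely over the limit in the control heart only, with a bound of 1.04-fold lower. Cyp2r1, which starts the activation of vitamin D, had levels of 2.78 in the transgenic heart and 2.67 in the control heart, a log2 ratio of 0.10 that became -0.01 after normexp. A second Cyp2r1 probe was dim, at -4.85 and not well above background in the transgenic heart and at -4.23 in the control heart. Cyp27b1 and Cyp24a1, which complete and end that activation, and Cyp26c1 were at background in both hearts.

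Of 6 enzymes whose substrates are little known, 3 were measured. Cyp20a1 had levels of -0.45 in the transgenic heart and -0.81 in the control heart, and Cyp2t4 had -1.38 in the transgenic heart and -1.74 in the control heart, each a log2 ratio of 0.36. Cyp2s1, an epithelial enzyme, had 0.09 in the transgenic heart and 0.37 in the control heart, a log2 ratio of -0.28. Cyp2ab1, Cyp2w1 and Cyp4x1 were at background in both hearts.

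Many P450 genes stand in tandem clusters of near-identical copies, so a probe may read more than 1 of them, and the probe sequences were not used here. In the Cyp2d cluster on chromosome 15, 5 of 8 protein-coding genes were measured, with a median of 0.23. The Cyp2j cluster on chromosome 4 gave 4 measured of 6, with a median of 0.16. The Cyp3a cluster on chromosome 5 gave 0 of 6, and the Cyp2c cluster on chromosome 19 gave 3 of 12. In the cluster of chromosome 7 that holds Cyp2a, Cyp2b, Cyp2f, Cyp2g, Cyp2s and Cyp2t genes, neighbours differed widely. Here Cyp2f2 and Cyp2b10 were at least 2-fold lower in the transgenic heart, Cyp2s1 and Cyp2t4 had ratios of -0.28 and 0.36, and 7 of 12 genes were on neither array.

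Among the proteins that P450 enzymes need, 1 gene was at least 2-fold different. Of 11 redox partners 10 were measured, none was 2-fold different, and the median was 0.10. Por, the reductase that feeds electrons to P450 enzymes of the endoplasmic reticulum, had levels of 3.57 in the transgenic heart and 2.96 in the control heart, a log2 ratio of 0.60. Cytochrome b5, Cyb5a, had 0.48, and ferredoxin, Fdx1, had -0.08. All 8 genes of haem synthesis were measured, 6 of them below 0, with a median of -0.30. Alas1, its rate-limiting enzyme, was the 1 member at least 2-fold lower, with levels of 5.38 in the transgenic heart and 6.48 in the control heart and a log2 ratio of -1.10, while another Alas1 probe gave -0.54. Cpox, a later enzyme of the pathway, had -0.63. Red cell precursors also make haem, and of 5 erythroid markers the 4 measured were all at least 2-fold lower in the transgenic heart, with a median of -2.80, among them Alas2 (-2.97) and Hbb-bt (-2.84). The summed level of the erythroid list was 192 in the transgenic heart and 820 in the control heart, and the part of red cells in the haem synthesis values was not tested.

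Receptors that control P450 genes were measured beside their targets. Of 10 genes of the aryl hydrocarbon receptor pathway 9 were measured, with a median of 0.34. Ahrr, the repressor of that receptor and itself its target, was the 1 member at least 2-fold higher, with levels of 0.31 in the transgenic heart and -1.32 in the control heart and a log2 ratio of 1.63 (3.10-fold). Tiparp (0.85) and Nqo1 (0.92), other known targets, and the receptor Ahr (0.65) also had positive ratios. Aldh3a1, another known target, had -0.17, and a second probe of it -1.18. The chaperone Hsp90ab1, which holds that receptor in the cytosol, had -0.22. The P450 targets beside them were Cyp1b1, at 0.22, and Cyp1a1, lower by its bound.

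Of 16 nuclear receptors of chemicals and lipids 14 were measured, with a median of -0.19 that became 0.10 after normexp. Nr1i3, the receptor of Cyp2b10, had -0.32, and Ppara, the receptor that controls Cyp4a10 in liver, had levels of 3.62 in the transgenic heart and 4.12 in the control heart, a log2 ratio of -0.50. Vdr, the vitamin D receptor, was the 1 member at least 2-fold lower, with a log2 ratio of -1.34, and no member was after normexp. Rxrg, a partner in the receptor dimers, had -0.72. Nr1i2, the pregnane receptor that controls Cyp3a11, was at background in both hearts.

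Some partners in the lipid pathways were over 2-fold different. Of 18 genes of arachidonate and epoxide metabolism 17 were measured, with a median of -0.14 that became 0.01 with a stricter filter on dim probes. Ephx1, the microsomal hydrolase that acts on epoxides made by P450 enzymes, had a log2 ratio of 1.15. Its levels were 5.18 in the transgenic heart and 4.03 in the control heart. Another Ephx1 probe gave a log2 ratio of 0.84, under 2-fold. The prostaglandin synthase Ptgds had 1.38, and the soluble hydrolase Ephx2, which breaks down the epoxides of Cyp2c and Cyp2j enzymes, had 0.43. At least 2-fold lower were Ptgs2 (-1.24), Tbxa2r (-1.10) and Ephx4 (-1.01), none of them after normexp.

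In the supply and sensing of retinoic acid, 12 of 15 genes were measured, with a median of -0.13. Rbp4, the retinol carrier, was the 1 member at least 2-fold lower, with levels of -1.07 in the transgenic heart and 0.69 in the control heart, a log2 ratio of -1.77. Dhrs3, a retinal reductase, had 0.79. Of 16 partners in sterol, steroid and vitamin D metabolism 13 were measured, with a median of 0.17. The sulfotransferase Sult1a1 (1.33), which acts on oestrogens and phenols, was at least 2-fold higher, and Vdr and the steroid reductase Srd5a1 (-1.04) at least 2-fold lower, neither of these after normexp. P450 enzymes with other symbols, the prostacyclin synthase Ptgis (-0.28), the thromboxane synthase Tbxas1 (-0.39) and the sterol demethylase Cyp51 (0.25), were within 1.5-fold.

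**Figure D4:**
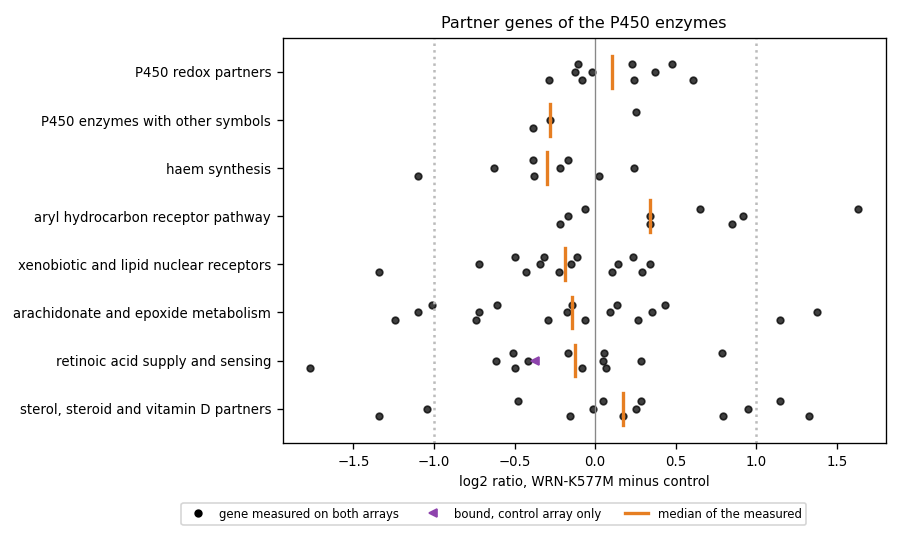
Log2 ratio, WRN-K577M minus control, of the partner genes of the P450 enzymes by pathway, each point 1 gene measured on both arrays, the triangle a bound of a gene well above background on the control array only, bars the medians and dotted lines 2-fold. Medians lie between -0.30 for haem synthesis and 0.34 for the aryl hydrocarbon receptor pathway, and Ahrr at 1.63 and Rbp4 at -1.77 are the outermost points.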

How the data were processed

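Cy3-labelled total RNA was hybridised to 1-colour Agilent arrays, both on 1 slide and in 1 scan. Intensity values were deposited as scanner output of Agilent Feature Extraction, version 11.5.1.1. Per the file headers, the processed intensity is background-subtracted, detrended and not scaled between arrays. The deposited series matrix is that intensity times 1 factor per array (4.86 for WRN-K577M, 4.12 for control), the reason for the factors being not given in the sources used here. Control spots and 257 outlier spots were left out, and no spot was saturated. From the deposited intensity the log2 level minus the array's 75th percentile (signals of 210 for WRN-K577M and 256 for control) was computed here. Spots of a probe were averaged, and a gene took its brightest measured probe. The measured genes Cyp21a1, Cyp2c38, Cyp2c67, Cyp2j6, Cyp2j8, Cyp2j13, Cyp2r1, Cyp3a13, Cyp4a10 and Cyp4a31 also have a probe that was not well above background on both arrays. RefSeq accessions named 28330 probes through a GRCm38.p6 table, which served for names and gene order, and 27350 stayed unnamed. The rule's symbols number 95 in that table, of which 5 (Cyp2a5, Cyp2j7, Cyp2c40, Cyp2j12 and Cyp2c69) were not analysed here.

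Groups came from the genotype in the labels. With 1 array per group the number of arrays limits the precision, and no test was run. Genes were counted at 2-fold beside the same count over all named genes. The text names every P450 gene well above background on 1 or both arrays, and of each partner list the members at least 2-fold different and the brightest. A partner gene that this rule names is not reported here. Other genes named were chosen after their values were seen. The members and all gene lists were chosen with earlier results of these data known. Alternatives were normexp with an offset of 50 on the median spot signal, quantile normalization, cyclic loess, the deposited matrix, the median of all probes, the percentile of detected probes, no filter and a stricter filter (level of at least -2), the mean of a gene's probes, thresholds of 1.5-fold and 3-fold, and a narrower reading of the symbol rule. A wider reading was added after seeing the data. Tools were Python 3.11.15, numpy 2.4.6, pandas 2.3.3, matplotlib 3.10.9, R 4.3.3 and limma 3.58.1, and the counting was tested on simulated data.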

Additional observations from a re-analysis of the deposited data

How the results depend on the processing

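The count of P450 genes at least 2-fold higher stayed at 0 and that of genes at least 2-fold lower at 2 under 5 other scalings, normexp background correction, a stricter filter on dim probes and the mean of a gene's probes. With no filter on dim probes the counts were 7 higher and 9 lower of 90 genes, since probes at background then enter. A threshold of 1.5-fold gave 3 higher and 3 lower, and 3-fold gave 0 higher and 1 lower. The median log2 ratio ran from 0.095 with the deposited matrix to 0.29 with no filter, where the median of all genes was 0.12. Symbols with exactly 1 digit and 1 letter left 31 measured genes with a median of 0.12, and letting a letter follow the last digits, a reading added after seeing the data, kept 38 genes and 0.15. Of 390 values of single genes under the alternatives, 374 moved by less than their software error and 16 by more, 12 of them under normexp. For bounds, this error was the median error of the measured genes. Many of the 374 could not have moved by more. The 38 values with no filter and the 23 with the stricter filter kept their ratio by design, and averaging probes could change only 2 genes. Scaling to the percentile of detected probes, to the median or as in the deposited matrix shifts all genes alike, by less than any of these errors. The count thus bears mainly on normexp (35 of 47 values within the error), quantile normalization (47 of 47) and cyclic loess (45 of 47). Of the 38 measured P450 genes, 14 had a mean level under -2, with 10 above 0 and a median of 0.22. Among the 24 brighter ones, 15 were above 0, with a median of 0.11. Over all measured genes the median was 0.03 for the 2515 under -2 and 0.02 for the 11488 brighter ones. The part of dim signal in the P450 values was not tested. No paired analysis was possible because each group has 1 array.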

Other observations

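The 42 P450 genes on neither array had a median processed signal of 2.44 in the transgenic heart and 2.38 in the control heart. Their level, relative to the 75th percentile, was higher in the transgenic heart for 34 of them, with a median log2 difference of 0.35, while the percentiles themselves differed by 0.29 on the log2 scale, lower in the transgenic heart. These values lie under the background limit of both arrays and are no measure of the genes.

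Promoters also differed with detection on the arrays. The 27 measured P450 genes with a RefSeq promoter had a median GC content of 53% and 4 CpG sites, the 10 on 1 array only 47.7% and 1.5, and the 32 on neither array 47.5% and 2. The array also names 8 genes whose Cyp symbol has another form, among them Cyp51, Cyp4a12a, Cyp4a12b and Cyp3a41b, and these are not counted among the 90.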
